A study of Rattus norvegicus with 6 samples.

Results

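Interferon-stimulated genes are the genes that a cell turns on when an interferon binds its receptor. A list of 37 of them, chosen by name to span sensors, transcription factors, antiviral effectors and feedback regulators, was followed in rat renal cortex. A probe belonged to the list when the gene of its RefSeq accession was a member. This gave 58 probes for 32 of the 37 genes, out of 15645 genes matched on the array. Rigi, Zbp1, Herc6, Ifi44l and Xaf1 had no matched probe. Ifit1, the founding member of the IFIT family, had 1 probe, which was not well above background on any of the 6 arrays. The other 31 genes were measured and tested.

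Renal cortex came from 6 male Sprague-Dawley (Crl:CD(SD)) rats, 5 weeks old when bought, on the same basal diet, and labelled as separate animals. The vehicle group, 3 rats, received corn oil for 4 weeks. The DNPT group, 3 rats, received the N-nitroso compound N,N'-dinitrosopentamethylenetetramine at 200 mg/kg/day over the same 4 weeks. The comparison asks how expression in the renal cortex differs between dosed and vehicle rats. Each sample is whole tissue, so fewer cells of a type and less RNA per cell cannot be told apart. Each rat was read on a 1-colour Agilent array, and a level is the log2 ratio of a probe's processed signal to its array's 75th percentile, so 0 is that percentile. Levels of different genes come from different probes and are not set against each other.

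Type I and type III interferons signal through the kinases JAK1 and TYK2 to a complex that holds STAT2 and IRF9 and binds the interferon-stimulated response element (ISRE) in promoters. Interferon gamma signals through JAK1 and JAK2 and acts on promoters at the gamma-activated site (GAS). The genes switched on include RNA sensors that renew the signal, IRF7 that amplifies interferon production, enzymes and GTPases that block viral replication, and USP18 and SOCS proteins that end the response. In kidney, tubular, endothelial and resident immune cells can all express these genes.

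The binding letters of this pathway are visible in the promoters of the members. RefSeq promoter windows of assembly GRCr8, running from 250 bases before to 50 bases after the start of the gene, were given for 28 of the 37 members. The ISRE was searched as GAAANNGAAA or its reverse complement TTTCNNTTTC, and the GAS as TTCNNNGAA, which reads the same on both strands. An ISRE match lay in 18 of the 28 windows (64.3%), against 1312 of all 33469 windows in the table (3.92%). A GAS match lay in 8 of the 28 (28.6%), against 2970 of all windows (8.87%). These matches are descriptions of letters and not of bound sites. The 5 windows that follow belong to the members whose values the results turn on, each printed 5' to 3' on the strand of the gene, with ISRE matches in capitals.
Irf7: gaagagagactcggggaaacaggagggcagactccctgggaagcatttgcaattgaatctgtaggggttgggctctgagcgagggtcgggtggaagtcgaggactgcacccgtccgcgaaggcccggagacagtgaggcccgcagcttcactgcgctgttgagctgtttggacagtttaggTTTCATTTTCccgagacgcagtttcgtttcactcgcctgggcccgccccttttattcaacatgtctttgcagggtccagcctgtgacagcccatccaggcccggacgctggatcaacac
Oas1a: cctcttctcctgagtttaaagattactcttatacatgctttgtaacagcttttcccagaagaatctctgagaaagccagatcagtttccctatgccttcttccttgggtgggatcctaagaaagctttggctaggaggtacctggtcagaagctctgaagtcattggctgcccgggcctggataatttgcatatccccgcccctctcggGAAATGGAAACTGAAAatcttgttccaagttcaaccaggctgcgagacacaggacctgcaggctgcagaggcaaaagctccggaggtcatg
Ifit3: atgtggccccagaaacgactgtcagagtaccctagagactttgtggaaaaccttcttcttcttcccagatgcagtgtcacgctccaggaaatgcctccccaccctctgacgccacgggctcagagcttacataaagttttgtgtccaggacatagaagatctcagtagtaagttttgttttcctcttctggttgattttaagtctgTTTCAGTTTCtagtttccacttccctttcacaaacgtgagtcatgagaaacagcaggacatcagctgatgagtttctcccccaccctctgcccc
Ifi27: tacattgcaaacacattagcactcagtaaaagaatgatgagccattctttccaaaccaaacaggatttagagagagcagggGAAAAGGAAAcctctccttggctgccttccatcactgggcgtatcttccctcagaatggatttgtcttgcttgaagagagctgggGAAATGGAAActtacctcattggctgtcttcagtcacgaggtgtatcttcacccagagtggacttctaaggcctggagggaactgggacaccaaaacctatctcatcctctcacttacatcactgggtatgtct
Bst2: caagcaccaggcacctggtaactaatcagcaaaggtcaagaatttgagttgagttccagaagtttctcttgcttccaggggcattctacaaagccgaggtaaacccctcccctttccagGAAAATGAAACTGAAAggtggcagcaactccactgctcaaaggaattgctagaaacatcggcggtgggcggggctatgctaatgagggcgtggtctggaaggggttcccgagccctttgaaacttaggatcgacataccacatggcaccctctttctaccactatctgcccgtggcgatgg

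The Irf7 window is chr1:205799974-205800273 on the minus strand, and its ISRE match starts 69 bases before the gene's start. The Oas1a window is chr12:41330216-41330515 on the plus strand and holds 2 overlapping ISRE matches, starting 41 and 35 bases before the start. It also holds a GAS match starting 199 bases before the start. The Ifit3 window is chr1:241527076-241527375 on the plus strand, with a match starting 44 bases before the start. The Ifi27 window is chr6:128355062-128355361 on the plus strand, with matches starting 169 and 84 bases before the start. The Bst2 window is chr16:18254918-18255217 on the minus strand, with 2 overlapping ISRE matches starting 131 and 125 bases before the start. A GAS match starting 137 bases before the start overlaps the first of these only.

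Between 42116 and 45167 probes per array were well above background. Arrays of the 3 vehicle rats and DNPT rat 1 shared slide 1, scanned on the first day, and those of DNPT rats 2 and 3 shared slide 2, scanned on the second. The proximal tubule markers Miox and Slc13a3 were bright in all 6 rats (8.86 to 9.33 and 8.38 to 8.79), and uromodulin (Umod), of the thick ascending limb, was at 7.75 to 8.28, which are markers the labelled tissue holds. DNPT rat 3 stood apart in liver and plasma protein transcripts, with albumin (Alb) at 3.76 against -4.72, 0.48 and -1.84 in vehicle rats and -1.25 and -4.73 in DNPT rats 1 and 2. Values without that rat stand beside some of the group results only. Other differences, such as those of Oas3 and Aim2, in which DNPT rat 3 was the lowest rat, are given with all rats alone. A result printed alone may therefore still be moved by that rat.

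No interferon-stimulated gene passed the test between the DNPT and vehicle groups. With limma and Benjamini-Hochberg adjustment over 34915 features, 0 of the 31 genes passed an adjusted p of 0.05, as did 0 features in all (0%), and the smallest adjusted p among the members was 0.403. At an unadjusted p under 0.05 there was 1 member, Bst2, lower in the DNPT rats, against 12.1% of all features in either direction, 6.16% lower and 5.95% higher. The mean was lower in the DNPT group for 19 of 31 members, against 48.1% of features. The median change over the members was -0.03 on the log2 scale, beside 0.01 over all features, and moved with the rats included. It was -0.05 without DNPT rat 3, -0.22 without DNPT rat 2 and 0.04 without DNPT rat 1, and with slide as a block, which compares DNPT rat 1 with the vehicle rats, it was -0.29. At an unadjusted p under 0.05 with limma there were 0 members without DNPT rat 3 (4.26% of features higher and 3.9% lower). There were 4 without DNPT rat 2, for which no share over all features was taken. An exact permutation test of 3 against 3 rats cannot go below 0.1.

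The 3 DNPT rats did not share a direction. All vehicle rats and DNPT rat 1 were read on slide 1, and DNPT rats 2 and 3 on slide 2. Differences of DNPT rats 2 and 3 from the vehicle rats therefore cannot be told apart from slide and scan day. In DNPT rat 1 the members lay low, with 27 of 31 below the vehicle mean against 45.9% of features, and 18 of 31 below all 3 vehicle rats against 23.9%. DNPT rat 1 was above all vehicle rats in 2 of 31, Irf1 and Mx2, against 30.8%, and in 4 of 31 without vehicle rat 3. In DNPT rat 2 they lay high, with 24 of 31 above the vehicle mean against 54.1%, and 15 of 31 above all 3 vehicle rats against 34.8%. That last count was 24 of 31 when vehicle rat 2 was left out. DNPT rat 2 was below all vehicle rats in 2 of 31, Adar and Bst2, against 29.9%, and in 6 of 31 without vehicle rat 3. In DNPT rat 3 the members were mixed, with 14 of 31 below all vehicle rats against 34% of features, and 4 of 31 above all of them against 33.8%. The count above became 12 of 31 without vehicle rat 2. Leaving out a vehicle rat narrows the vehicle range, so such counts cannot fall, for members or for all features. The shares of all features were not recomputed for these counts. The median difference from the vehicle mean was -0.29 in DNPT rat 1, 0.15 in DNPT rat 2 and -0.18 in DNPT rat 3, beside 0.02, 0.03 and 0 over all features. The same medians were -0.08, 0.15 and -0.03 in vehicle rats 1 to 3. DNPT rats 1 and 3 lay below all of these, and DNPT rat 2 lay at the level of vehicle rat 2. Each vehicle rat is part of the vehicle mean and the DNPT rats are not, which by itself draws the vehicle medians closer together.

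**Figure D1:**
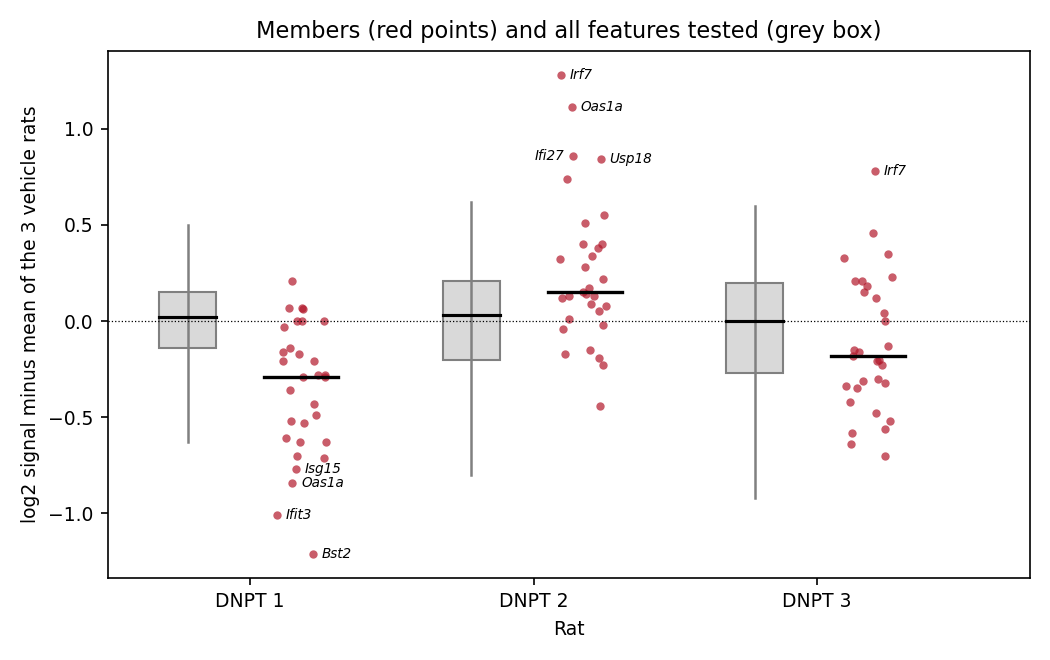
Difference of each DNPT rat from the mean of the 3 vehicle rats (log2, vertical axis) for every feature tested (grey boxes, quartiles; whiskers, the central 90%) and for the 31 interferon-stimulated genes (red points; black lines, medians). The members' median lies at -0.29 in DNPT rat 1, 0.15 in DNPT rat 2 and -0.18 in DNPT rat 3, while the boxes are centred near 0.

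DNPT rat 2 was higher than the other DNPT rats in most members. Within slide 2, DNPT rat 2 exceeded DNPT rat 3 in 28 of 31 members, against 52.1% of features, the exceptions being Stat2, Trim25 and Ifitm3. DNPT rat 2 also exceeded DNPT rat 1 in 28 of 31 (50.7% of features), although these rats lay on different slides. On slide 1, DNPT rat 1 alone against the 3 vehicle rats gave the median of -0.29 named above. Each DNPT rat was also fitted alone against the vehicle rats, a test of the rat and not of the treatment, which assumes that a lone rat varies like the vehicle rats and in which all 3 contrasts share those rats. No member passed an adjusted p of 0.05 with limma in DNPT rat 1 (0% of features), DNPT rat 2 (0%) or DNPT rat 3 (0.0917%). At an unadjusted p under 0.05, Dhx58, Gbp2 and Bst2 were lower in DNPT rat 1 (3 of 31, against 4.37% of features). Cmpk2 and Ifi27 were higher in DNPT rat 2 (2 of 31, against 5.66%), and Ifih1, Adar, Gbp5 and Bst2 lower in DNPT rat 3 (4 of 31, against 12.9%).

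The members also varied among vehicle rats. Vehicle rat 2 was the highest of its group in 19 of 31 members, against 30.1% of features, and vehicle rat 1 the lowest in 16 of 31, against 36.2%. The median SD over 3 vehicle rats was 0.2 for the members and 0.13 for all features, and over 3 DNPT rats 0.35 and 0.18. A range over 1 log2 unit was found among the DNPT rats for 7 of 31 members (12.4% of features), namely Irf7, Ifit3, Oas1a, Rsad2, Isg15, Usp18 and Ifi27. Among the vehicle rats it was found for 5 of 31 (6.64%), namely Irf7, Oas1a, Oasl, Isg15 and Dtx3l.

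**Figure D2:**
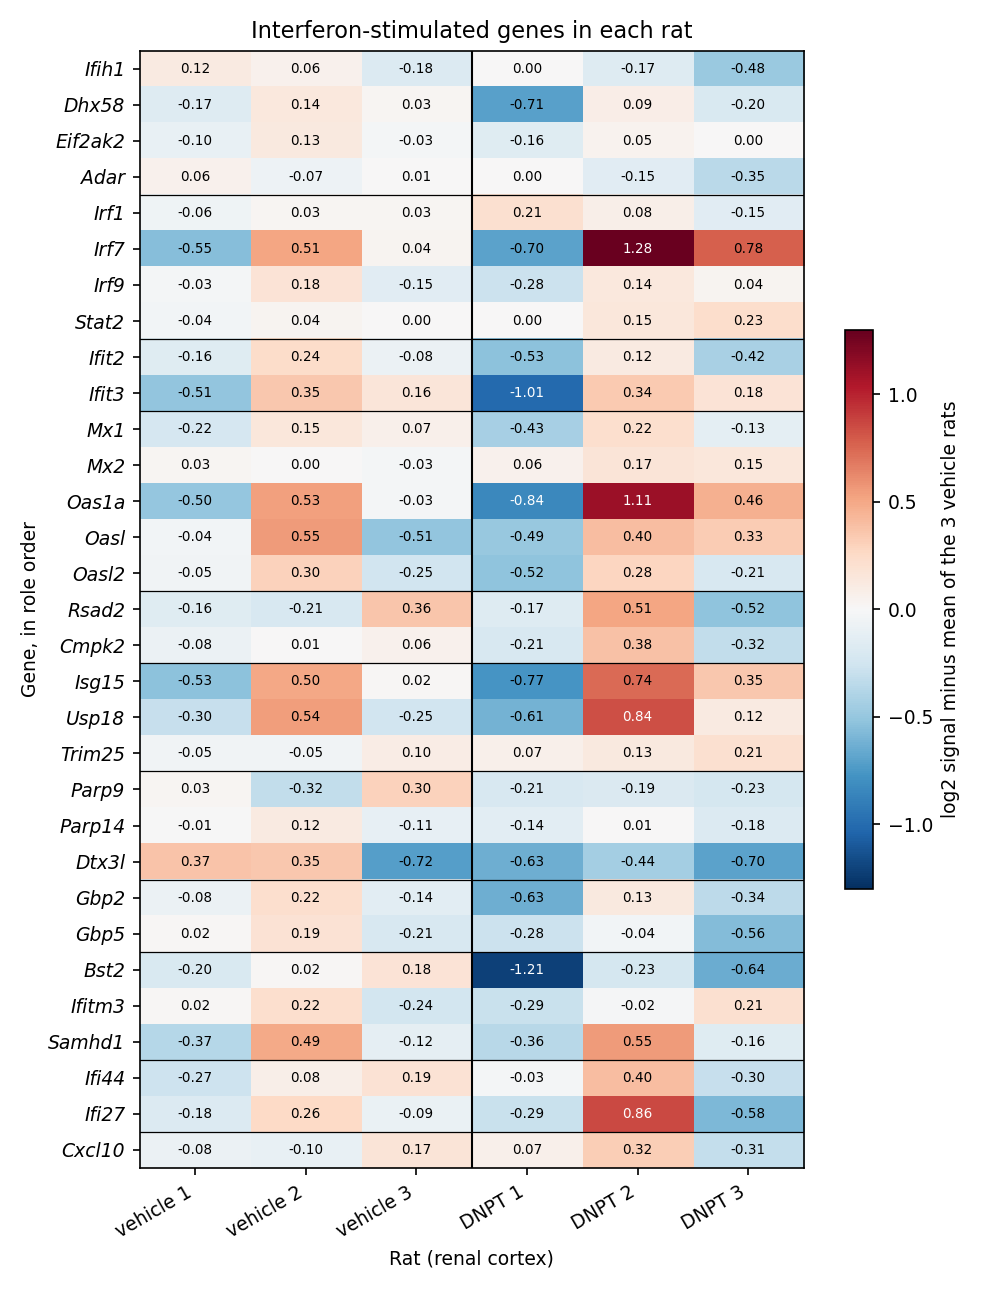
Heat map of the 31 measured interferon-stimulated genes (rows, by role) in the 6 rats (columns), coloured by the log2 level minus the vehicle mean of that gene. The column of DNPT rat 1 is mostly low (27 of 31 below the vehicle mean) and that of DNPT rat 2 mostly high (24 of 31 above it).

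Among the sensors of foreign nucleic acid, all 4 measured genes had a lower mean in the DNPT group and none passed the test. Dhx58 encodes LGP2, which tunes signalling by the RNA helicase sensors. Its level was -2.10, -1.79 and -1.89 in vehicle rats 1 to 3, and -2.64, -1.84 and -2.13 in DNPT rats 1 to 3, a difference of -0.27 (SE 0.22, adjusted p = 0.602 with limma). DNPT rat 1 was the lowest rat, 1.64-fold below the vehicle mean, and the groups overlapped through DNPT rat 2. Eif2ak2 encodes PKR, the kinase that stops translation on binding double-stranded RNA; it was at -0.55, -0.31 and -0.48 in vehicle rats and -0.60, -0.39 and -0.44 in DNPT rats. The groups overlapped, with a 1.16-fold range among DNPT rats and 1.18-fold among vehicle rats. Ifih1, the long-RNA sensor MDA5, and Adar, the RNA-editing enzyme that marks RNA as self, had differences of -0.22 (SE 0.16) and -0.17 (SE 0.11), with the lowest level in DNPT rat 3. Without that rat the differences were -0.09 and -0.08.

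Of the transcription factors, Irf7 varied most. IRF7 is the factor that drives the later wave of interferon alpha genes and is itself induced by interferon. Its level was 0.32, 1.38 and 0.92 in vehicle rats, and 0.18, 2.15 and 1.65 in DNPT rats. DNPT rat 1 was lowest of all 6 rats and DNPT rats 2 and 3 the highest, a 3.93-fold range among dosed rats against 2.08-fold among vehicle rats. The group difference of 0.45 (SE 0.56, adjusted p = 0.742 with limma) was smaller than its error, and was 0.29 without DNPT rat 3. Stat2, a subunit of the ISRE-binding complex, was far steadier, at 1.87, 1.95 and 1.91 in vehicle rats and 1.91, 2.06 and 2.14 in DNPT rats (0.13, SE 0.09, adjusted p = 0.57). The groups overlapped through DNPT rat 1. Irf9, the DNA-binding subunit of that complex, differed by -0.03 (SE 0.15) and Irf1, the factor most directly induced by interferon gamma, by 0.05 (SE 0.11).

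The IFIT proteins bind viral RNA that lacks host cap marks. Ifit3 was at -3.24, -2.38 and -2.56 in vehicle rats and -3.74, -2.39 and -2.55 in DNPT rats. DNPT rats 2 and 3 lay among the vehicle rats, and DNPT rat 1 lay 2.02-fold below the vehicle mean, so the group difference was -0.17 (SE 0.42, adjusted p = 0.883 with limma). Ifit2 was at -1.74, -1.34 and -1.65 in vehicle rats and -2.11, -1.46 and -2.00 in DNPT rats, with DNPT rats 1 and 3 below all vehicle rats and DNPT rat 2 among them (-0.28, SE 0.21, adjusted p = 0.577). A second Ifit2 probe gave all 3 DNPT rats below all vehicle rats, at -5.62, -4.64 and -5.05 against -4.45, -4.47 and -4.33. Ifit1 had processed signals of 3.92, 7.96 and 3.63 in vehicle rats and 4.46, 16.3 and 20.7 in DNPT rats, none of them well above background, so no fold is given.

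The OAS enzymes make the 2'-5' oligoadenylate messenger that turns on RNase L, and the MX proteins are dynamin-like GTPases that trap viral nucleocapsids. Oas1a was at -0.23, 0.79 and 0.23 in vehicle rats and -0.58, 1.37 and 0.72 in DNPT rats. As with Irf7, DNPT rat 1 was lowest and DNPT rat 2 highest of all 6, a 3.86-fold range against 2.03-fold among vehicle rats, with a group difference of 0.24 (SE 0.54, adjusted p = 0.864 with limma). A second Oas1a probe followed the same order within each group, at -2.99, -1.78 and -2.21 against -3.15, -0.41 and -1.70. Rat Oas1 genes are near copies of each other, so their probes may share signal, which was not tested.

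Mx2 was the only member with all 3 DNPT rats above all 3 vehicle rats (1 of 31, against 11.9% of features), and by a small amount. It was at 6.25, 6.22 and 6.19 in vehicle rats and 6.28, 6.39 and 6.37 in DNPT rats (0.13, SE 0.08, adjusted p = 0.51 with limma). The difference was 0.02 with quantile normalization, 0.01 with cyclic loess and -0.04 with normexp and quantile normalization, so its direction depends on the scaling. Its second probe did not show this order, at -3.83, -2.95 and -3.70 in vehicle rats and -4.59, -3.23 and -2.94 in DNPT rats, with DNPT rat 1 the lowest. Mx1 was lowest in DNPT rat 1 and highest in DNPT rat 2, with a group difference of -0.12 (SE 0.19). The OAS-like genes Oasl2 and Oasl differed by -0.15 (SE 0.24) and 0.08 (SE 0.35), and Oasl was above background on 5 of the 6 arrays only.

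Isg15 and, by its brightest probe, Usp18 repeated the pattern of Irf7 and Oas1a. ISG15 is a ubiquitin-like protein attached to other proteins during the response, and USP18 removes it and also blocks the type I receptor. Isg15 was at -0.30, 0.73 and 0.25 in vehicle rats and -0.54, 0.97 and 0.58 in DNPT rats (0.11, SE 0.45, adjusted p = 0.931 with limma). Usp18 was at -2.60, -1.76 and -2.55 in vehicle rats and -2.92, -1.47 and -2.18 in DNPT rats (0.11, SE 0.42, adjusted p = 0.921). By these values, in both genes, DNPT rat 1 was the lowest of all 6 rats and DNPT rat 2 the highest. Vehicle rat 2 was the highest of its group. Another Usp18 probe was well above background on 5 arrays. It was at -5.44, -5.11 and -4.96 in vehicle rats and -6.08, -5.37 and -5.00 in DNPT rats. There DNPT rat 1 was again the lowest, but vehicle rat 3 was the highest and DNPT rat 2 lay below the vehicle mean. The remaining Usp18 probe kept the order, at -3.25, -2.52 and -3.39 in vehicle rats and -3.94, -1.92 and -2.58 in DNPT rats. Trim25, a ubiquitin ligase that activates RIG-I, was steady, at 2.61, 2.60 and 2.76 in vehicle rats and 2.72, 2.78 and 2.86 in DNPT rats (0.14, SE 0.09, adjusted p = 0.53), and the groups overlapped.

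**Figure D3:**
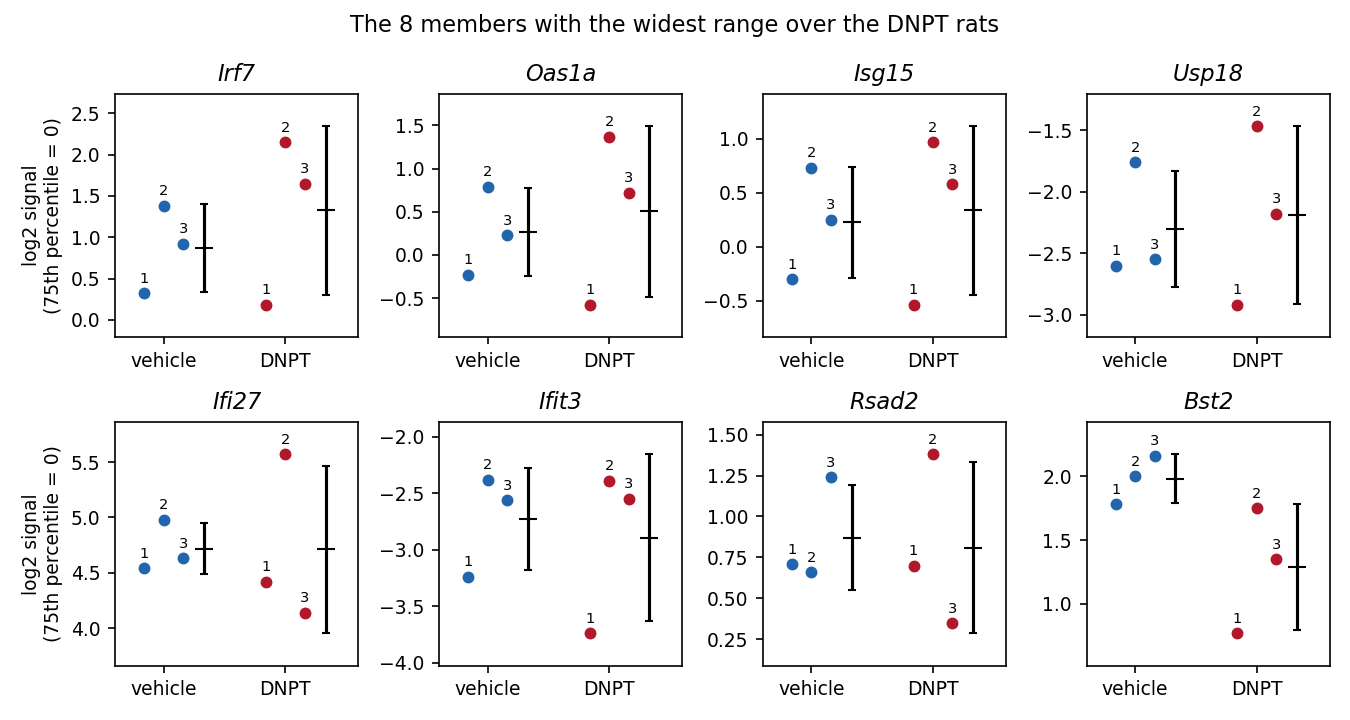
Levels (log2, relative to the 75th percentile of the array) in the 6 rats of the 8 members with the widest range over the DNPT rats; points are rats, bars are group mean and SD (n = 3 per group). In Irf7, Oas1a, Isg15, Usp18 and Ifit3 DNPT rat 1 is the lowest of 6, and in Bst2 all 3 DNPT rats lie below all 3 vehicle rats.

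Ifi27 and the viperin locus separated the rats differently by their brightest probes, where DNPT rat 3 was the lowest. Ifi27, a small mitochondrial and nuclear membrane protein, was at 4.54, 4.98 and 4.63 in vehicle rats and 4.42, 5.57 and 4.14 in DNPT rats, a 2.71-fold range among dosed rats with a group difference of -0.01 (SE 0.39, adjusted p = 0.996 with limma). Rsad2 encodes viperin, which makes a chain-terminating nucleotide, and was at 0.71, 0.66 and 1.24 in vehicle rats and 0.70, 1.38 and 0.35 in DNPT rats (-0.06, SE 0.30, adjusted p = 0.939). DNPT rat 2 was the highest of 6 in both genes, and the groups overlapped. Without DNPT rat 3 the differences were 0.28 for Ifi27 (SE 0.37) and 0.17 for Rsad2 (SE 0.29). Cmpk2, its neighbour in the genome, a nucleotide kinase, lay 1.31-fold above the vehicle mean in DNPT rat 2 and 1.25-fold below it in DNPT rat 3. Another probe of each viperin locus gene, above background on all 6 arrays, had DNPT rat 1 the lowest instead. That of Rsad2 was at -0.21, -0.13 and 0.13 in vehicle rats and -0.43, 0.37 and -0.31 in DNPT rats. That of Cmpk2 was at -2.93, -2.55 and -2.92 in vehicle rats and -3.28, -2.57 and -2.99 in DNPT rats. The second Ifi27 probe kept DNPT rat 3 as the lowest, at 1.61. Ifi44 was at -0.24, 0.11 and 0.22 in vehicle rats and 0.00, 0.43 and -0.27 in DNPT rats (0.02, SE 0.22). The T cell chemokine Cxcl10 was at -0.47, -0.49 and -0.22 in vehicle rats and -0.33, -0.07 and -0.70 in DNPT rats (0.02, SE 0.18). By these probes both were highest in DNPT rat 2 and lowest in DNPT rat 3, with vehicle rats between. Another Ifi44 probe was at -0.18, 0.30 and -0.02 in vehicle rats and -0.29, 0.20 and -0.20 in DNPT rats. There vehicle rat 2 was the highest and DNPT rat 1 the lowest. The remaining Ifi44 probe was at -0.77, -0.34 and -0.16 in vehicle rats and -0.53, -0.17 and -0.80 in DNPT rats. It kept DNPT rat 3 as the lowest, but vehicle rat 3 was the highest, just above DNPT rat 2.

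By the brightest probe of each gene, the lowest rat differed from member to member. DNPT rat 1 was the lowest of all 6 in 14 of 31, against 13.5% of features, among them Dhx58, Irf7, Irf9, Ifit2, Ifit3, Mx1, Oas1a, Oasl2, Isg15 and Usp18. DNPT rat 3 was the lowest in 10 of 31, against 21.8%, namely Ifih1, Adar, Irf1, Rsad2, Cmpk2, Parp14, Gbp5, Ifi44, Ifi27 and Cxcl10. Of the 18 members below all vehicle rats in DNPT rat 1 and the 14 in DNPT rat 3, 8 were below them in both. These were Dhx58, Ifit2, Cmpk2, Parp14, Gbp2, Gbp5, Bst2 and Ifi27. The same overlap was not counted over all features, so nothing about the members is read from it. DNPT rat 2 was the lowest in 0 of 31, against 16.4%, and the highest in 12 of 31, against 19.1%. Vehicle rat 2 was the highest in 11 of 31, against 12.8%.

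The guanylate-binding proteins Gbp2 and Gbp5, GTPases that open pathogen vacuoles and assist inflammasomes, both had lower means in DNPT rats. Gbp2 was at 0.76, 1.05 and 0.69 in vehicle rats and 0.20, 0.96 and 0.49 in DNPT rats (-0.28, SE 0.22, adjusted p = 0.585 with limma). Gbp5 was at -1.84, -1.68 and -2.08 in vehicle rats and -2.14, -1.90 and -2.43 in DNPT rats (-0.29, SE 0.17, adjusted p = 0.499). In each, DNPT rats 1 and 3 lay below all vehicle rats and DNPT rat 2 among them.

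PARP9 and DTX3L form a complex that marks histones and viral proteins, and PARP14 is a related mono-ADP-ribosyl transferase. Dtx3l was at -3.54, -3.57 and -4.64 in vehicle rats and -4.55, -4.36 and -4.62 in DNPT rats (-0.59, SE 0.31, adjusted p = 0.467 with limma), with vehicle rat 3 at the level of the DNPT rats. Its second probe gave another order, at -4.20, -5.26 and -4.30 in vehicle rats and -3.45, -5.01 and -5.76 in DNPT rats. Parp14 was at 2.37, 2.50 and 2.26 in vehicle rats and 2.24, 2.39 and 2.20 in DNPT rats (-0.10, SE 0.10). Another Parp14 probe was at -1.53, -1.47 and -2.10 in vehicle rats and -2.11, -2.11 and -2.20 in DNPT rats. There every DNPT rat lay below all vehicle rats, though vehicle rat 3 only just. By the remaining Parp14 probes the groups overlapped. Parp9 had the narrowest range among DNPT rats, 0.03 log2 units, at -1.41, -1.40 and -1.43, within the vehicle values of -1.18, -1.53 and -0.91.

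Bst2 was the member with the lowest unadjusted p. It encodes tetherin, which holds budding virus at the cell surface, and in rodents its protein also marks plasmacytoid dendritic cells. Its level was 1.78, 2.00 and 2.16 in vehicle rats and 0.77, 1.75 and 1.35 in DNPT rats. All 3 DNPT rats lay below all 3 vehicle rats (1 of 31 members, against 8.32% of features), by 2.31-fold, 1.18-fold and 1.55-fold from the vehicle mean. The difference was -0.69 (SE 0.26, adjusted p = 0.403 with limma), so it did not pass over all features. A second Bst2 probe gave 0.89, 0.79 and 1.16 in vehicle rats and -0.10, 0.70 and 0.40 in DNPT rats, again without overlap. Ifitm3, which blocks virus entry at endosomes, differed by -0.03 (SE 0.18), and Samhd1, which depletes deoxynucleotides, by 0.01 (SE 0.32).

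Values of members with and without an ISRE match in the promoter window stand side by side here. The 16 measured members with a match had medians of -0.29, 0.20 and -0.30 in DNPT rats 1, 2 and 3, and the 9 measured members with a window but no match had -0.21, 0.15 and -0.13. The count below all vehicle rats in DNPT rat 1 was 11 of 16 with a match and 3 of 9 without, against 23.9% of features. The count above all vehicle rats in DNPT rat 2 was 6 of 16 and 6 of 9, against 34.8% of features. No test was made between these groups, and the other 6 measured members have no window here.

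Genes upstream of the members gave no call in any list. Of the genes for interferon production and sensing, 20 of 36 were tested, 0 passed the adjusted threshold with limma, and at an unadjusted p under 0.05 there was 1 higher (5.95% of features) and 1 lower (6.16%). Without DNPT rat 3 there was 1 higher (4.26%) and 0 lower (3.9%). With all rats the higher was Nlrx1, a mitochondrial regulator of MAVS signalling (0.29, SE 0.09, adjusted p = 0.384), and the lower Aim2, the cytosolic DNA sensor of the inflammasome (-0.89, SE 0.32, adjusted p = 0.401). The next smallest p belonged to the DNA receptor Tlr9 (-0.44, adjusted p = 0.419) and the TBK1 adaptor Tbkbp1 (0.29, adjusted p = 0.431). Irf3, the factor that starts interferon beta transcription, differed by 0.17 (SE 0.09). Ifnb1 and Ifng, the genes of interferon beta and gamma, had 1 probe each, not well above background on any array.

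Of the receptor, JAK-STAT and inhibitor genes, 22 of 26 were tested, and 0 passed after adjustment with limma. At an unadjusted p under 0.05, 3 were higher (5.95% of features) and 3 lower (6.16%), and without DNPT rat 3 0 were higher (4.26%) and 1 lower (3.9%). The smallest p belonged to the STAT inhibitor Pias3 (0.34, SE 0.10, adjusted p = 0.382), then Stat3, the factor downstream of interleukin-6 (-0.47, SE 0.15, adjusted p = 0.393). The feedback inhibitors Socs1 and Socs3 followed, at -0.55 (SE 0.20, adjusted p = 0.401) and -0.51 (SE 0.19, adjusted p = 0.402). The receptor chain Ifnar1 differed by -0.06 (SE 0.10), and Ifnar2 had no matched probe. The list's medians in DNPT rats 1, 2 and 3 were 0.07, 0.12 and 0.16.

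Further interferon-induced genes outside the 37 were also low in DNPT rat 1. Of 90 such genes 61 were tested, 0 passed after adjustment, and at an unadjusted p under 0.05 there were 1 higher (5.95% of features) and 2 lower (6.16%), and without DNPT rat 3 0 higher (4.26%) and 1 lower (3.9%). The medians were -0.14 in DNPT rat 1, 0.11 in DNPT rat 2 and 0.02 in DNPT rat 3. DNPT rat 1 lay below the vehicle mean in 46 of 61 (45.9% of features), and DNPT rat 2 above DNPT rat 1 in 49 of 61 (50.7% of features). The higher gene was the chemokine Cxcl11 (0.31, SE 0.10, adjusted p = 0.393), and the lower genes were Oas3 (-0.89, SE 0.30, adjusted p = 0.393) and Ube2l6, the enzyme that conjugates ISG15 (-0.30, SE 0.11, adjusted p = 0.398). The RNA helicase Mov10 came next (-0.46, adjusted p = 0.415).

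Markers of immune cells also differed between rats. Of the lymphocyte markers 17 of 20 were tested, with 0 called after adjustment with limma. At an unadjusted p under 0.05, 2 were higher (5.95% of features) and 10 lower (6.16%), and without DNPT rat 3 2 were higher (4.26%) and 7 lower (3.9%). Their medians were -0.62, -0.29 and -0.48 in DNPT rats 1, 2 and 3, and their summed linear level was 5.64 to 6.82 in vehicle rats and 4.72, 5.11 and 5.52 in those DNPT rats, in units of the array's 75th percentile. The T cell receptor chain Cd3d was at 0.01, -0.08 and 0.05 in vehicle rats and -0.20, -0.35 and -0.52 in DNPT rats (-0.35, SE 0.11, adjusted p = 0.383), and the chemokine Ccl5 differed by -0.15 (SE 0.14). Of the macrophage and dendritic cell markers 14 of 18 were tested, with medians of -0.40, -0.02 and -0.33, and a summed level of 83.0 to 102 in vehicle rats and 67.2, 90.1 and 74.7 in DNPT rats. Their brightest markers, Lyz2 and C1qb, differed by -0.26 (SE 0.15) and -0.06 (SE 0.19).

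The macrophage medians ran in the order of the members' medians, lowest in DNPT rat 1, highest in DNPT rat 2 and between these in DNPT rat 3. The lymphocyte medians did too. Plasmacytoid dendritic cell markers, a list that holds Bst2 itself, had 7 of 10 tested, medians of 0.06, -0.01 and -0.06, and a summed level of 7.20 to 8.13 in vehicle rats and 5.67, 7.26 and 6.06 in DNPT rats. Bst2 is part of that sum, so the sum does not stand apart from the Bst2 values above, and the list without Bst2 was not summed. The list's defining markers Siglech, Clec4c and Ptcra had no matched probe. Neutrophil markers, 5 of 10 tested, had medians of 0.48, 0.05 and 0.50, with S100a9 and S100a8 at differences of 0.55 (SE 0.25) and 0.42 (SE 0.25). Endothelial markers, 10 of 10 tested, had medians of 0.08, 0.04 and 0.07, with Plvap and Kdr at differences of 0.11 (SE 0.11) and 0.25 (SE 0.12). Markers of the thick ascending limb, 3 of 3 tested, had medians of -0.28, 0.01 and -0.19, again in the order of the members, with Umod and Slc12a1 at -0.17 (SE 0.15) and -0.13 (SE 0.13). Medians were 0.02, 0.06 and -0.20 for fibroblast and mesangial markers (7 of 8 tested), -0.36, 0 and -0.05 for podocyte markers (5 of 5), -0.14, -0.15 and -0.17 for inner medulla and urothelium (6 of 7), 0.10, 0.22 and 0.12 for proximal tubule (10 of 10), and 0.31, -1.19 and 4.39 for liver and plasma proteins (6 of 6). The podocyte and proximal tubule medians also ran in the order of the members' medians, so that order was not particular to the immune cell lists. The part of these cells in the levels of the interferon-stimulated genes was not tested.

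**Figure D4:**
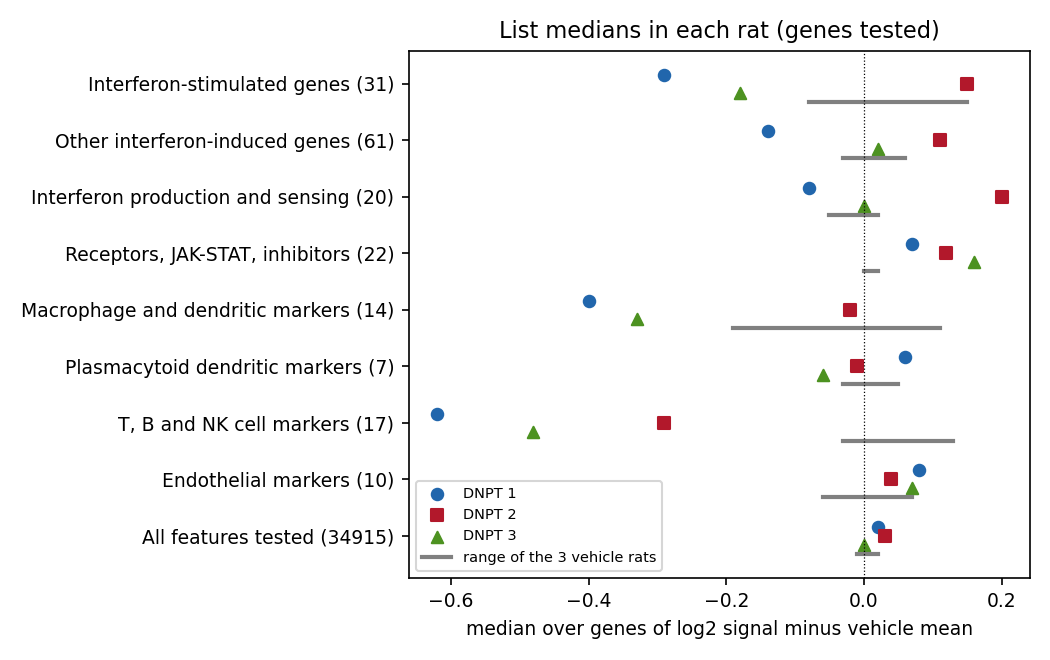
Median difference from the vehicle mean (log2, horizontal axis) of 8 gene lists and of all features in DNPT rats 1, 2 and 3 (points). Grey lines give the range of the same median over the 3 vehicle rats, each of which is part of that mean. The interferon-stimulated genes lie at -0.29, 0.15 and -0.18, the macrophage and dendritic markers at -0.40, -0.02 and -0.33, and the lymphocyte markers at -0.62, -0.29 and -0.48.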

How the data were processed

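The deposited scanner files hold a linear intensity for each spot, the background-corrected processed signal, per the file headers; Agilent Feature Extraction 10.7 made it, per the submitters' processing notes. A deposited table gives a ratio, the processed signal over a constant for each array near its 75th percentile (100% of probes within 0.5%), and served as an alternative. Control spots and 113 outlier-flagged values were left out. Log2 of the signal minus the array's 75th percentile was used. A probe was tested if well above background on 3 of 6 arrays with 2 values per group. RefSeq accessions matched 28206 of 61537 probes to 1 gene, 0 to several and 33331 to none (GRCr8, names only; the array design used rn4), and the brightest tested probe stood for its gene, which left 34915 features.

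Groups were compared with limma 3.58.1 in R 4.3.3 (lmFit and eBayes, two-sided, no covariates); p-values were adjusted by Benjamini-Hochberg over every feature, with a threshold of 0.05; a further fit set each DNPT rat alone against the vehicle rats. The procedure was tested on simulated data. Members, lists and tests were chosen with earlier results of these data known. Values in all rats were given, per role, for the member of largest change and the brightest, and for the 8 members of widest DNPT range, besides others named after their values were seen. Group differences were given, where measured, for the 4 smallest p and for Ifnar1, Ifnar2, Irf3, Ifnb1 and Ifng of the pathway lists, and for at most the brightest 2 of each marker list. 1 further gene under these rules is not reported here. Replicate numbers did not pair the rats. P-values measure the spread between these 6 rats, and precision is limited by how few arrays there are. Promoter windows came from RefSeq. Figures used matplotlib 3.10.9.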

Additional observations from a re-analysis of the deposited data

How the results depend on the processing

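Under 20 alternatives (other scalings, normexp, the deposited table, filters and probe rules, weighted arrays, a trend with intensity, a block for slide or for replicate number, slide 1 alone, leaving out each rat), 0 members passed the adjusted threshold. The median change of the members moved to -0.29 with slide as a block and to -0.29 on slide 1 alone, since both set DNPT rat 1 against the vehicle rats. It was -0.03 with the replicate block; same-numbered rats correlated at -0.177, -0.0593 and -0.179, so their numbers do not pair them. Leaving out each rat in turn gave -0.22 (without DNPT rat 2) to 0.04 (without DNPT rat 1). Under 5 other scalings the medians stayed at -0.32 to -0.25 in DNPT rat 1, 0.13 to 0.16 in DNPT rat 2 and -0.19 to -0.13 in DNPT rat 3. Members at an unadjusted p under 0.05 with limma numbered 0 with array weights, without vehicle rat 1 and without DNPT rat 3. They numbered 2 with the replicate block and 4 without DNPT rat 2. Of these settings, the share over all features was taken only without DNPT rat 3. Such counts are not given with slide as a block or on slide 1 alone, where DNPT rat 1 alone stands for the dosed rats. The change of Bst2 was negative in all 20, from -1.21 to -0.43, with adjusted p from 0.268 to 0.661 (limma). Counts of members outside the vehicle range were recomputed in the same way, a choice made after seeing the data. Those below it in DNPT rat 1 ran from 18 to 21 of 31 under the scalings and those above it in DNPT rat 2 from 14 to 16. For normexp the median spot signal replaced the planned mean. Low signal limits Ifit1, Ifnb1 and Ifng.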

Other observations

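The Oas1 relatives were looked at after the values of Oas1a had been seen. Oas1i was at -2.88, -2.20 and -2.42 in vehicle rats 1 to 3 and -3.17, -1.85 and -2.29 in DNPT rats 1 to 3. Oas1k was at -2.83, -1.83 and -2.67 in vehicle rats and -3.26, -1.77 and -2.28 in DNPT rats. In both, as in Oas1a, DNPT rat 1 was the lowest and DNPT rat 2 the highest of all 6 rats, and vehicle rat 2 the highest of its group. Oas1b and Oas2 did not have this order. Oas1b was at 5.85, 5.78 and 5.83 in vehicle rats and 5.88, 5.88 and 5.96 in DNPT rats. Oas2 was at -3.27, -2.59 and -3.32 in vehicle rats and -3.48, -3.46 and -3.34 in DNPT rats. Oas1a, Oas1i and Oas1k are near copies, and signal shared between their probes was not tested. The interferon-induced chaperone Rtp4 differed from Irf7 in DNPT rat 1, at -0.72, 0.09 and -0.52 in vehicle rats and 0.28, -0.19 and -0.54 in DNPT rats, with its highest level of all 6 rats in DNPT rat 1; the order among vehicle rats was that of Irf7.

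More than 1 tested probe was on the array for 19 members. Against the vehicle mean, all probes of a gene had the same sign for 16 of these in DNPT rat 1, 15 in DNPT rat 2 and 15 in DNPT rat 3, but for 11 in the group difference. Counted by probe, 46 of 55 lay below the vehicle mean in DNPT rat 1 and 42 of 55 above it in DNPT rat 2. Probes of the same gene are not independent. Neither the agreement of probes nor these probe counts were taken over the whole array, so nothing about the members is read from them.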
